A study of Arabidopsis thaliana with 21 samples.

Results

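Heat stress transcription factors (HSFs) are plant proteins that bind heat shock elements, short inverted repeats of the bases GAA, in the promoters of chaperone and antioxidant genes. The 10 genes described here were chosen by gene identifier out of 32833 genes counted: the class A members HSFA1A, HSFA1D, HSFA2, HSFA3, HSFA4A, HSFA7A and HSFA7B, and the class B members HSFB1, HSFB2A and HSFB2B. The material was whole Arabidopsis thaliana seedlings at 7 days of age, and their poly(A) RNA made up 21 libraries, 3 for each of 7 groups. High light lasted 2 h at 500 µmol m-2 s-1, and growth light, the control, was 100 µmol m-2 s-1. The groups were hy5 in high light, Col-0 wild type (WT) in high light, 35S:HY5K87Q-GFP/hy5 in growth light, 35S:HY5K87R-GFP/hy5 in growth light, 35S:HY5K87K-GFP/hy5 in growth light, hy5 in growth light and WT in growth light.

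HY5 is a bZIP factor of light signalling, and hy5 seedlings lack it. The K87Q, K87R and K87K lines all carry HY5 fused to GFP, driven by the constitutive 35S promoter rather than the gene's own, with glutamine, arginine or the natural lysine at residue 87. Glutamine is commonly used as a stand-in for acetylated lysine, and arginine for lysine that cannot be acetylated. The design text places K87Q and K87K in hy5-1 and K87R in hy5-2, and gives no allele for the hy5 seedlings. It does not say that a genotype was represented by more than 1 line, so each comparison below is between these lines. No line was sequenced in high light. Replicates are called biological in the labels with nothing on separate cultures, so p-values measure the spread between these samples.

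In Arabidopsis, the HSFA1 proteins are present before stress and start the heat response, and HSFA2 is a strongly inducible activator that sustains it. HSFA3 acts downstream of the drought and heat factor DREB2A, HSFA4A is linked to signalling by hydrogen peroxide, and HSFA7A and HSFA7B are inducible activators. HSFB1 and HSFB2B lack the activation motif of class A, and act as repressors that limit HSFA2 and HSFA7A. HSFB2A is a further class B gene. High light brings both excess excitation and warming to a leaf, and HSFA2 is a known responder to it.

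The libraries held 7283290 to 22101539 counts. HY5 averaged 249, 345 and 284 CPM in the K87Q, K87R and K87K lines, against 0.552 CPM in hy5 and 8.65 CPM in WT, all in growth light, and 0.275 CPM in hy5, against 66.6 CPM in WT, in high light. These levels are low in hy5 and high in the lines as labelled, and cannot tell the 3 lines from each other. CPM are counts per 1000000 counts of a library after TMM scaling, which sets the bulk of genes level between libraries. Replicates ranked genes alike in growth light (Spearman's rho of at least 0.974 within a group) and less so in high light (0.777 to 0.936 in hy5 and 0.808 to 0.956 in WT). The high-light replicate 3 libraries stood apart: plastid genes took 7.30% of counts in hy5 and 6.52% in WT, against 4.15% at most elsewhere. Their 4 shoot markers summed to 1428 CPM in hy5 and 6355 CPM in WT, against 60863 to 124564 CPM in the other high-light libraries. Calls on high light, and some of the log2 changes, are therefore also given without both.

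The 250 bases before the annotated gene start are shown first for the 3 members that hold a triple heat shock element there, HSFA2, HSFA7A and HSFA7B, and for HSFB1, which rose in high light with no match. All 10 genes have the same start and end in RefSeq's TAIR10.1 annotation as in the deposited table, and the bases are from that assembly, 5′ to 3′ on the gene's strand. HSFA2 (AT2G26150) is at chr2:11135624-11137792, HSFA7A (AT3G51910) at chr3:19265141-19266806, HSFA7B (AT3G63350) at chr3:23399236-23400812 and HSFB1 (AT4G36990) at chr4:17440177-17442151. HSFB2A (AT5G62020) is at chr5:24915807-24917643 and HSFB2B (AT4G11660) at chr4:7042354-7044708, and these 6 genes are on the plus strand. On the minus strand are HSFA1A (AT4G17750) at chr4:9869818-9871646, HSFA1D (AT1G32330) at chr1:11656964-11660471, HSFA3 (AT5G03720) at chr5:971142-974326 and HSFA4A (AT4G18880) at chr4:10347479-10349902. Capitals mark matches to GAANNTTC or TTCNNGAA, the 2 ways in which neighbouring repeats can face each other.
HSFA2: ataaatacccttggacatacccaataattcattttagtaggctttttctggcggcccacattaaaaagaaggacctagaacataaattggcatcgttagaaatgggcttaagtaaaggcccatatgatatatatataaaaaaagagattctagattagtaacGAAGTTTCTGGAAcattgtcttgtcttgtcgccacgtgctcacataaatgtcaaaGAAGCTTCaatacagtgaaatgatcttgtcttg
HSFA7A: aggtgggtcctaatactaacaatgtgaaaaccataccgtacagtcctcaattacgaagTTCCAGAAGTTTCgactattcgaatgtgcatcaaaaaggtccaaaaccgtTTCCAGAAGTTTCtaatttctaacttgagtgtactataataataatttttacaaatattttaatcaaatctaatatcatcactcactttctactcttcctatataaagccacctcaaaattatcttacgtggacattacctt
HSFA7B: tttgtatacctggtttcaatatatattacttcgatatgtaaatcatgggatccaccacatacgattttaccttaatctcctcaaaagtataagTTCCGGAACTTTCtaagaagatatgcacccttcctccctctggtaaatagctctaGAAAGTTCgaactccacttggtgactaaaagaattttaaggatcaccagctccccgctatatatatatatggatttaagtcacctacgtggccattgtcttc
HSFB1: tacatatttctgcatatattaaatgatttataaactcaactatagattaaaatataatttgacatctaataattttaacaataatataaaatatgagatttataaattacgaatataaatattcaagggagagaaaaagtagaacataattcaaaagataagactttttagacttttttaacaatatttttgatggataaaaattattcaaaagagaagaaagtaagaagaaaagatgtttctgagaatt

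Both motifs read the same on either strand, and they overlap where 3 repeats follow each other. HSFA7A held 4 matches, HSFA2 and HSFA7B held 3 each, HSFA4A held 1, and the other 6 members held none in this window. Of 27412 nuclear protein-coding genes, 16.2% held at least 1 match in a window of the same length and 0.193% held at least 3. A triple element, in which both motifs overlap by their shared GAA or TTC, occurred on either strand in 0.387% of those windows. It lay 88 to 76 bases before the start of HSFA2 and 157 to 145 bases before that of HSFA7B, and in HSFA7A at 192 to 180 and 142 to 130 bases. HSFA2 also held CACGTG, the G-box to which bZIP factors such as HY5 can bind, 56 to 51 bases before its start, as did 6.48% of windows. No other member held a G-box. Its inner bases, ACGT, were also found in HSFA1D, HSFA7A and HSFA7B, as in 44.1% of windows. These are matches of letters and not measured binding.

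**Figure D1:**
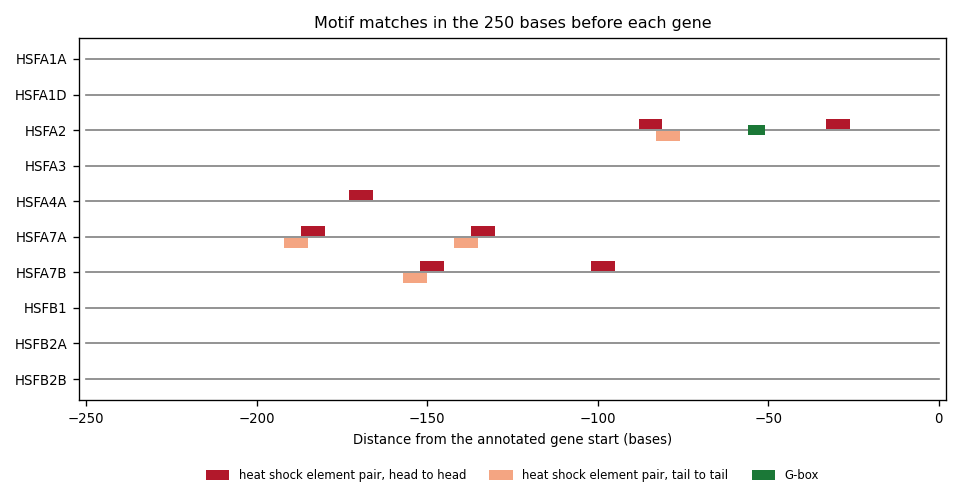
Positions of motif matches in the 250 bases before each of the 10 genes, by distance from the annotated start in bases. Red and salmon bars are the 2 forms of a heat shock element pair, and they overlap where the element is a triple, in HSFA2, HSFA7A and HSFA7B; green is the G-box of HSFA2.

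High light against growth light was the largest contrast for these genes. In each genotype 8 of 10 members rose and none fell; HSFA1A and HSFA4A were called in neither. Over all 19209 genes tested, 13.1% were called higher and 10.9% lower in hy5, and 8.59% higher and 5.11% lower in WT. Without both replicate 3 libraries of high light, the same 8 were called higher in each genotype. The share of all genes called was not computed for those fits. The members were chosen with earlier results of these data known, so their count beside that of all genes is a description. The libraries of those 8 members did not overlap between the light conditions, as for 48.2% of all genes in hy5 and 42.4% in WT. The members' median log2 change was 4.74 in hy5 and 3.88 in WT, beside 0.01 and 0.05 over all genes. The call was an adjusted p under 0.05 in edgeR's quasi-likelihood test with Benjamini-Hochberg adjustment over all genes, and adjusted p-values below are of that kind.

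HSFA2 had 4166, 9270 and 4358 CPM in the high-light hy5 libraries, against 0.897, 0.885 and 1.15 CPM in growth-light hy5. In WT it had 1295, 615 and 4428 CPM in high light, against 2.43, 1.43 and 2.47 CPM in growth light. The high-light libraries lay far above the growth-light ones with no overlap, and replicates of WT in high light spread widely. HSFA2 rose by 12.56 ± 1.11 on the log2 scale in hy5 (SE, n = 3 against 3, edgeR adjusted p = 4.91e-05) and by 9.96 ± 1.01 in WT (edgeR adjusted p = 0.000142). Without the replicate 3 libraries of high light, the rise in WT was 8.80. Growth-light HSFA2 rests on 37 counts in all in hy5 and 95 in WT, so these fold changes are loosely set at their lower end.

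HSFA7B, nearly silent in growth light, had 209.8, 327 and 68.1 CPM in high-light hy5, against 0.192, 0.354 and 0.353 CPM in growth-light hy5. In WT it had 15.8, 14.5 and 37.4 CPM in high light, against 0, 0.239 and 0.370 CPM in growth light. The growth-light values rest on 11 counts in all in hy5 and 9 in WT, so the fold changes, 9.38 ± 0.94 in hy5 and 6.74 ± 0.87 in WT (log2, edgeR adjusted p = 7.70e-05 and 0.000551), are loosely set at their lower end. HSFA7A had 138, 126 and 387 CPM in high-light hy5, against 6.15, 4.78 and 4.24 CPM in growth-light hy5, a log2 rise of 5.42 ± 0.97 (edgeR adjusted p = 0.00241). In WT, HSFA7A had 36.6, 21.3 and 332 CPM in high light, against 5.92, 6.61 and 6.84 CPM in growth light. One library, replicate 3, was about an order of magnitude above its fellows there. The rise in WT was 4.33 ± 0.92 (edgeR adjusted p = 0.00984), 2.16 without the replicate 3 libraries of high light, and not called when any 1 of the 3 growth-light WT libraries was left out (adjusted p = 0.0501 to 0.0525).

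HSFA3 had 228, 131 and 132 CPM in high-light hy5, against 3.72, 4.33 and 5.65 CPM in growth-light hy5. In WT it had 168, 88.1 and 176 CPM in high light, against 3.22, 3.82 and 4.93 CPM in growth light. The rise was almost the same size in both genotypes, 5.16 ± 0.44 in hy5 and 5.17 ± 0.44 in WT (log2, edgeR adjusted p = 4.47e-05 and 6.70e-05). HSFA3 overlaps AT5G03710 by 486 bases on the opposite strand, and the counting is not stated to use strand; AT5G03710 itself was at 0 in every growth-light library and at 2.13 CPM at most in high light.

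The repressor HSFB1 had 778, 1528 and 373 CPM in high-light hy5, against 4.87, 8.14 and 10.6 CPM in growth-light hy5, and rose by 6.83 ± 0.65 (log2, edgeR adjusted p = 6.34e-05). In WT it had 455, 302 and 472 CPM in high light, against 12.7, 9.80 and 9.06 CPM in growth light, and rose by 5.28 ± 0.60 (edgeR adjusted p = 0.000287). No high-light library overlapped a growth-light one. HSFB2B, the second repressor, had 109.7, 229 and 37.0 CPM in high-light hy5, against 6.92, 5.31 and 6.54 CPM in growth-light hy5. In WT it had 74.1, 56.4 and 83.3 CPM in high light, against 7.497, 6.85 and 5.61 CPM in growth light. HSFB2B rose by 4.32 ± 0.56 in hy5 and 3.42 ± 0.54 in WT (log2, edgeR adjusted p = 0.000376 and 0.00187). The gene overlaps AT4G11670 by 308 bases on the opposite strand, a gene that held 3.24 to 16.8 CPM over the 21 libraries.

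HSFB2A had the highest growth-light level of the 10 per length, at 14.3 ± 2.24 CPM per kb in hy5 and 22.1 ± 1.43 CPM per kb in WT (SD, n = 3 each). It had 148, 298 and 218 CPM in high-light hy5, against 20.6, 28.0 and 26.6 CPM in growth-light hy5, and 173, 112 and 233 CPM in high-light WT, against 36.1, 41.1 and 39.0 CPM in growth-light WT. Its rise was the smallest among the class B members, 3.14 ± 0.39 in hy5 and 2.15 ± 0.37 in WT (log2, edgeR adjusted p = 0.000268 and 0.00301).

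The HSFA1 genes act first in the heat response. HSFA1D had 13.4, 10.8 and 25.8 CPM in high-light hy5, against 3.97, 3.01 and 4.24 CPM in growth-light hy5, and rose by 2.16 ± 0.43 (log2, edgeR adjusted p = 0.00422). In WT it had 10.7, 18.18 and 24.8 CPM in high light, against 6.97, 6.53 and 5.55 CPM in growth light, and rose by 1.495 ± 0.42 (edgeR adjusted p = 0.0336). Its WT call was lost on leaving out any WT library other than high-light replicate 1 (adjusted p = 0.0657 to 0.137), and on total-count scaling (adjusted p = 0.170). HSFA1A had 1.46, 0 and 5.29 CPM in high-light hy5 and 0.128, 0.442 and 0.707 CPM in growth-light hy5, from at most 129 counts in a library. Its high-light libraries overlapped the growth-light ones in both genotypes, and its log2 difference was 2.43 ± 1.40 in hy5 and 0.27 ± 1.28 in WT. HSFA4A had 6.03 to 16.5 CPM in high-light hy5 and 9.29 to 11.5 CPM in growth-light hy5, with log2 differences of 0.08 ± 0.37 in hy5 and -0.22 ± 0.37 in WT. Without the replicate 3 libraries of high light, HSFA1A was at 0.89 in hy5 and -1.89 in WT, and HSFA4A at -0.35 and -0.33. Neither HSFA1A nor HSFA4A was called, with or without those libraries.

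**Figure D2:**
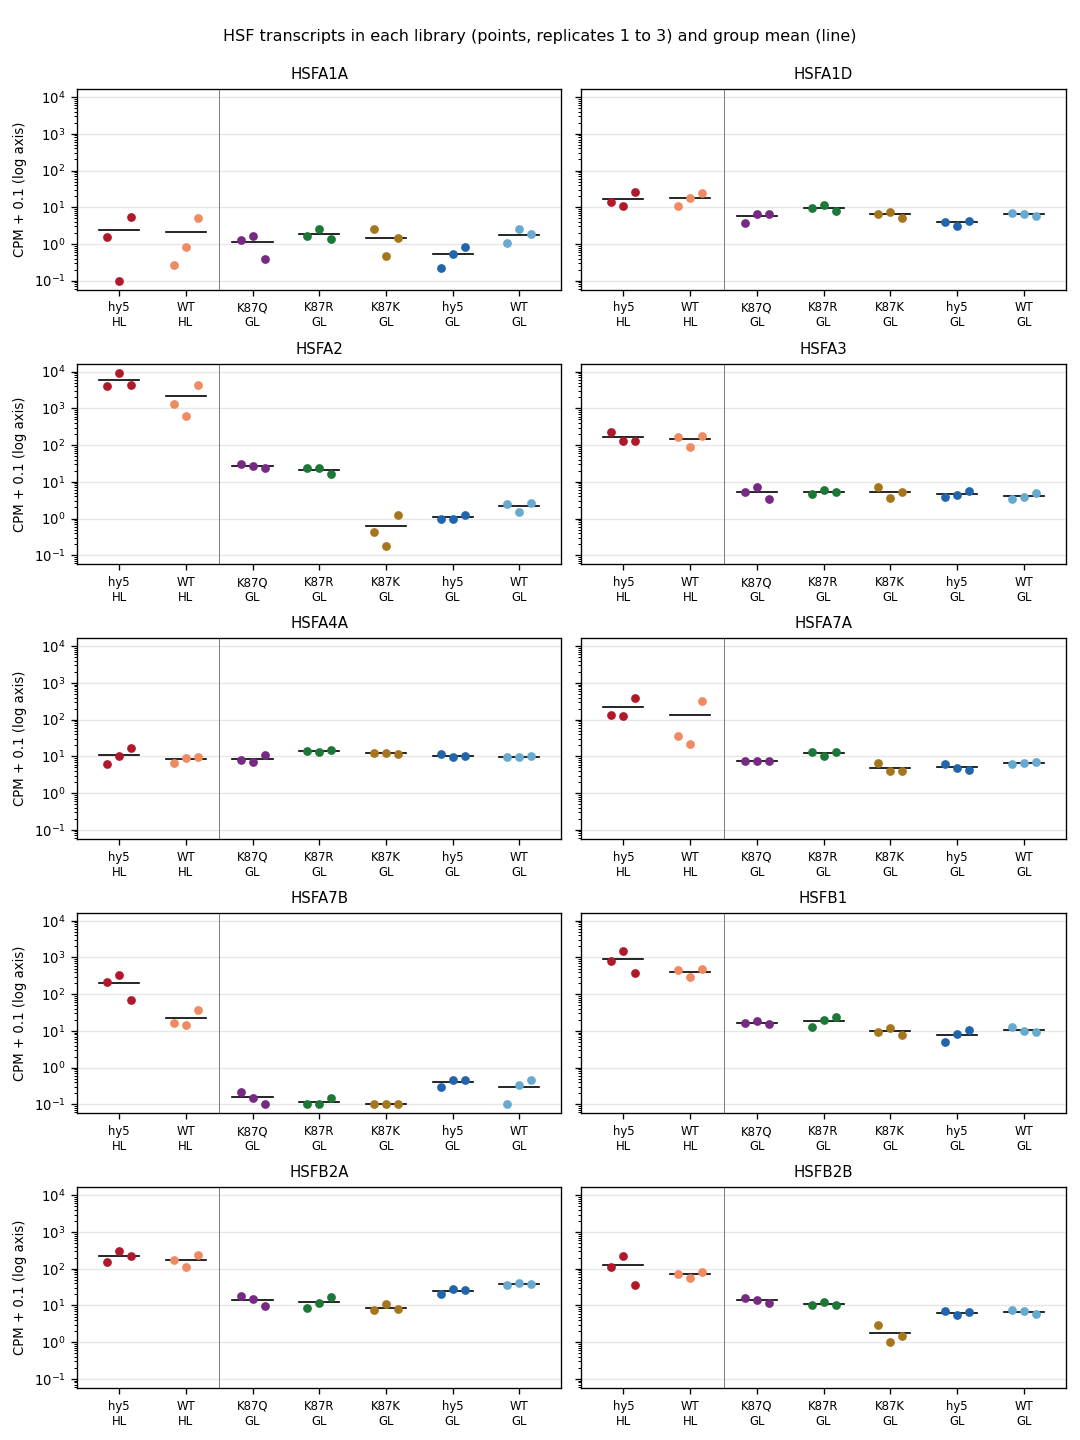
Level of each member in CPM + 0.1 on a log axis, with 1 point per library and a line at the group mean; HL is high light and GL growth light. The high-light points lie above all growth-light points of the same genotype for 8 members, and HSFA1A and HSFA4A overlap. In growth light, K87Q and K87R lie above K87K without overlap for HSFA2, HSFA7A, HSFB1 and HSFB2B, most widely for HSFA2 and HSFB2B.

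The 4 root markers summed to 264 to 852 CPM in high-light hy5 and 309 to 367 CPM in high-light WT, against 2202 to 2218 CPM in growth-light hy5 and 2402 to 2896 CPM in growth-light WT. Their part in the members' rise was not tested. In bulk seedlings, fewer cells of a type and less RNA per cell cannot be told apart.

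Per length of transcript, the rise changed which HSF was most abundant. The 10 members summed to 4306 ± 1943 CPM per kb in high-light hy5 and 1697 ± 1341 in high-light WT, against 35.1 ± 2.97 in growth-light hy5 and 47.8 ± 1.13 in growth-light WT (SD, n = 3 each). HSFA2 made up 72.7% of that sum in high-light hy5 and 59.8% in high-light WT, against 1.48% in growth-light hy5 and 2.36% in growth-light WT. HSFB2A made up 3.06% and 7.26% in high-light hy5 and WT, against 40.5% in growth-light hy5 and 46.1% in growth-light WT. By mean, HSFB1 had the next largest share after HSFA2 in high light, at 11.1% in hy5 and 18.22% in WT. In the replicate 3 libraries HSFA7A stood above HSFB1, with 334 against 209 CPM per kb in hy5 and 286 against 265 in WT. In growth light the sum was 53.4 ± 5.43 CPM per kb in K87Q, 57.4 ± 3.54 in K87R and 27.0 ± 2.79 in K87K. These shares are descriptions and were not tested.

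**Figure D3:**
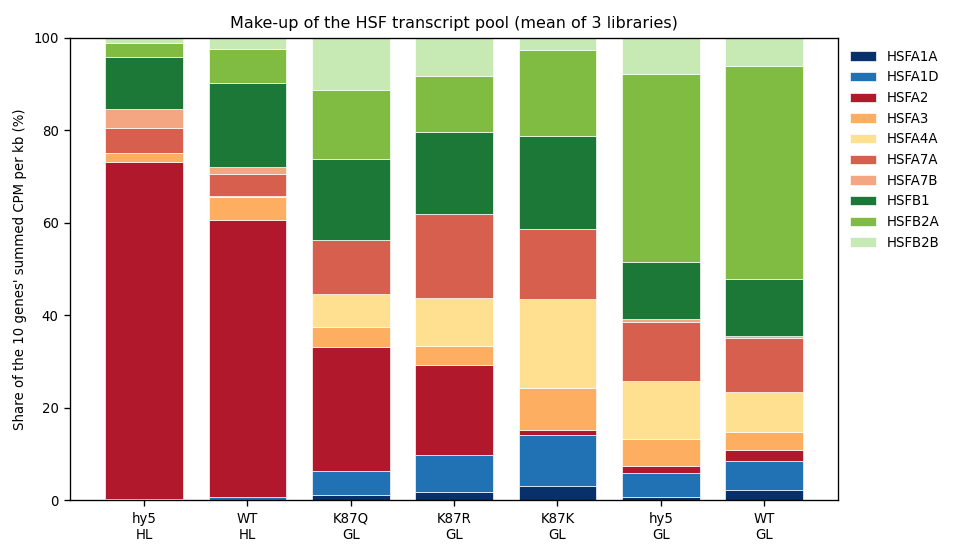
Share of each member in the 10 genes' summed CPM per kb, mean of 3 libraries per group. HSFA2 (red) fills most of the bar in high light, is 26.9% and 19.4% in the K87Q and K87R lines, and is 1.101% in the K87K line; HSFB2A is the largest share in growth-light hy5 and WT.

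Other HSF pathway genes were taken from lists, which were also chosen with earlier results of these data known. Of the 11 other HSF genes, 6 were tested in this fit, and HSFA1E and HSFA8 rose in both genotypes (HSFA1E by 3.10 in hy5 and 3.12 in WT, log2). HSFA9 and HSFC1 were listed at 0 counts in all libraries. Of 12 partners and upstream factors, 11 were tested, and 10 rose in hy5 and 9 in WT. Of these, ROF2, a co-chaperone, rose by 10.36 in hy5 and 8.77 in WT. DREB2A, the activator of HSFA3, rose by 8.80 in hy5 and 6.94 in WT (log2, edgeR adjusted p = 6.91e-05 and 0.000267). All 16 HSF target genes rose in both genotypes, with a median log2 rise of 11.78 in hy5 and 11.45 in WT. HSA32, a protein of lasting heat tolerance, rose by 5.41 in hy5 and 5.68 in WT.

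Whether the response differed with hy5 was tested as an interaction, the high-light change in hy5 minus that in WT. None of the 10 members was called (0.00521% of all genes were). An unadjusted p under 0.05 was reached by 2 members, and DESeq2 called 0. The difference was positive in 9 of 10 members, with a median of 1.04 beside -0.03 over all genes. HSFA2 stood at 2.60 ± 1.02 (log2, unadjusted p = 0.0246 in edgeR) and HSFA7B at 2.65 ± 1.19 (unadjusted p = 0.0457 in edgeR), while HSFA3 was at -0.01 ± 0.50. All edgeR adjusted p-values were 0.745 or more. No other HSF, partner or target was called either.

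This outcome turned on the replicate 3 libraries of high light. Without both of them, 6 members were called higher in hy5: HSFA2 by 3.94, HSFA7B by 3.66, HSFA7A by 2.53, HSFB1 by 2.04, HSFB2B by 1.46 and HSFB2A by 1.28 (log2, edgeR adjusted p = 0.00143 to 0.0440). In that fit 7.94% of 19166 genes were called higher and 9.99% lower. Without WT replicate 3 alone, HSFA2 and HSFA7A were called (3.75 and 3.26, adjusted p = 0.0465 and 0.0405 in edgeR). The share of all genes called in that fit was not computed, so these calls set neither member apart. HSFA1D, HSFA3 and HSFA4A, at 0.52, 0.30 and -0.02 without both libraries, stayed uncalled. So did HSFA1A, which rests on few counts, at 2.78 without both (adjusted p = 0.253 in edgeR) and 2.17 ± 1.88 with them.

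Directly in high light, hy5 against WT, none of the 10 members was called (0.00568% of all genes were). HSFA7B alone had libraries that did not overlap, from 68.1 to 327 CPM in hy5 against 14.5 to 37.4 CPM in WT. Over all genes, 7.24% were without overlap. HSFA7B was 3.16 ± 0.74 higher in hy5 on the log2 scale, with an unadjusted p of 0.00184 in edgeR that did not pass adjustment (0.9996), and it was the only member with an unadjusted p under 0.05. DESeq2 called HSFA7B (adjusted p = 0.00876), as did the fit of all 21 libraries (0.00702). Deviations from the group means correlated by replicate number between these 2 groups, which the outlying replicate 3 libraries can also bring about. With replicate number in the fit, the adjusted p of HSFA7B was 0.218 in edgeR. HSFA2, with 4166 to 9270 CPM in hy5 and 615 to 4428 CPM in WT, overlapped because the highest WT library exceeded 2 of the hy5 ones. Without the replicate 3 libraries, HSFA7B (4.15), HSFA2 (2.81) and HSFA7A (2.19) were called higher in hy5, where 0.662% of 17212 genes were called higher and 1.17% lower.

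**Figure D4:**
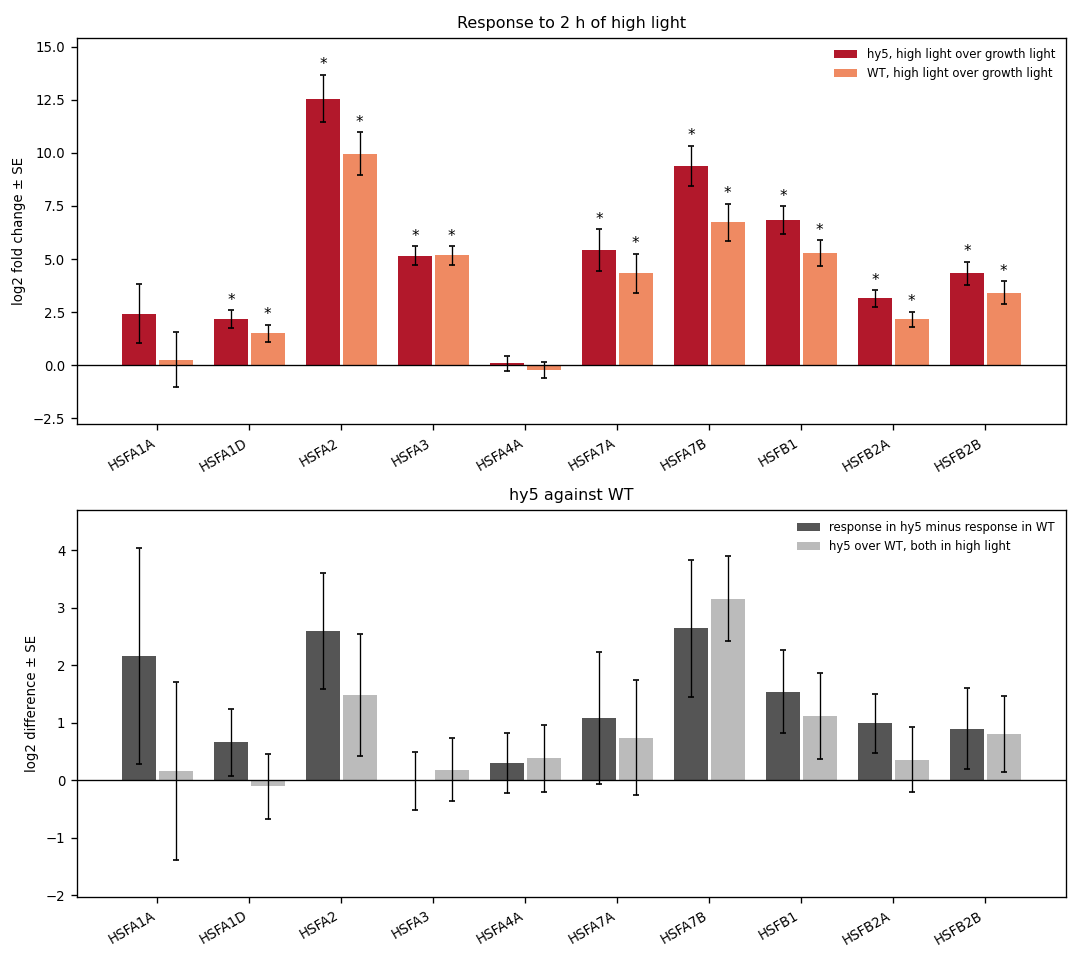
Upper panel: log2 fold change ± SE of each member in high light over growth light, in hy5 and WT, with an asterisk at an adjusted p under 0.05. Lower panel: the difference of those responses and hy5 over WT in high light, which carry no asterisk; the differences of HSFA2 (2.60 and 1.49) and HSFA7B (2.65 and 3.16) stand above those of HSFA3 (-0.01 and 0.18).

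In growth light, hy5 against WT, 4 of 9 members tested fell in hy5 and none rose; of all 19580 genes tested, 11.4% were called lower and 12.2% higher. HSFA7B stayed below the count filter in growth light and was not tested there. HSFB2A had 20.6, 28.0 and 26.6 CPM in hy5, against 36.1, 41.1 and 39.0 CPM in WT, and fell by 0.63 on the log2 scale (SE 0.22, edgeR adjusted p = 0.0344). HSFA2 had 0.897, 0.885 and 1.15 CPM in hy5, against 2.43, 1.43 and 2.47 CPM in WT, and fell by 1.13 (SE 0.38, adjusted p = 0.0282 in edgeR). HSFA1A and HSFA1D fell by 2.03 (SE 0.74) and 0.76 (SE 0.27). The libraries of the 2 genotypes did not overlap for these 4 genes, as for 45.2% of all genes. Their adjusted p-values were near the threshold: leaving out 1 library left 0 to 2 members called, and the fit of all 21 libraries called none. The other 5 tested were not called: HSFA3, HSFA4A and HSFB2B differed by 0.18 at most, and HSFA7A and HSFB1 were at -0.34 and -0.43. Of 10 HSF partners tested, 6 fell in hy5 and none rose, and the smallest adjusted p-values were those of HSP90.1, HSP90.2 and ROF1, at -1.54, -0.82 and -1.02 (log2). Of 11 targets, HSP70-4, HSP101 and CLPB4 fell and GOLS1 rose, CLPB4 being named after its value was seen, and of 7 other HSFs HSFA4C fell.

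The lines with HY5 changed at residue 87 differed from the line with the natural residue mainly at HSFA2 and HSFB2B. HSFA2 had 30.3, 27.5 and 23.2 CPM in K87Q, 23.0, 23.3 and 16.0 CPM in K87R and 0.341, 0.0765 and 1.15 CPM in K87K. It had 0.897, 0.885 and 1.15 CPM in hy5 and 2.43, 1.43 and 2.47 CPM in WT. All 6 K87Q and K87R libraries lay above all 9 others, and the K87K values rest on 5, 1 and 14 counts. The share of all genes without overlap was not computed for the lines, so separation of their libraries, here and below, is a description. The level in K87Q and K87R was still well below that of any high-light library, the lowest of which had 615 CPM.

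Against hy5, HSFA2 rose by 4.79 ± 0.32 in K87Q and 4.41 ± 0.33 in K87R (log2, edgeR adjusted p = 1.60e-13 and 9.73e-13), and against WT by 3.66 ± 0.29 and 3.27 ± 0.29. Against K87K it rose by 5.72 ± 0.35 in K87Q and 5.34 ± 0.36 in K87R (edgeR adjusted p = 2.40e-14 and 1.25e-13), or 6.92 and 6.54 without K87K replicate 3. In K87K it was 0.93 ± 0.49 below hy5, which was not called (edgeR adjusted p = 0.161; 0.00491, 2.13 lower, without K87K replicate 3), and it fell by 2.07 against WT (SE 0.42, edgeR adjusted p = 0.000401), or by 3.26 without K87K replicate 3. K87Q and K87R did not differ detectably at HSFA2 (0.38 ± 0.24, edgeR adjusted p = 0.241). These comparisons share the hy5, WT or K87K libraries, and HSFA2 in hy5 rests on 37 counts in all. The K87Q and K87R calls for HSFA2 held under every alternative tried.

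HSFB2B had 15.6, 14.3 and 11.5 CPM in K87Q, 10.2, 12.04 and 9.92 CPM in K87R, and 2.87, 0.918 and 1.39 CPM in K87K. It had 6.92, 5.31 and 6.54 CPM in hy5 and 7.497, 6.85 and 5.61 CPM in WT. The K87K libraries were the lowest of the 15 and those of K87Q and K87R the highest. Against K87K, HSFB2B rose by 2.97 ± 0.28 in K87Q and 2.61 ± 0.28 in K87R (log2, edgeR adjusted p = 1.01e-10 and 2.06e-09). Against hy5 it rose by 1.14 ± 0.25 in K87Q and 0.78 ± 0.25 in K87R, and fell by 1.83 in K87K (SE 0.29, edgeR adjusted p = 1.18e-05). The overlapping AT4G11670 was at 16.1 CPM at most in growth light over a span of 8748 bases, of which 308 are shared, and its part in the HSFB2B counts was not tested.

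HSFB1 had 16.6, 18.1 and 15.1 CPM in K87Q, 12.8, 19.2 and 23.2 CPM in K87R and 9.29, 12.01 and 7.77 CPM in K87K. It had 4.87, 8.14 and 10.6 CPM in hy5 and 12.7, 9.80 and 9.06 CPM in WT. K87Q and K87R lay above hy5 and K87K with no overlap. Against hy5 it rose by 1.09 ± 0.24 in K87Q and 1.25 ± 0.24 in K87R (log2, edgeR adjusted p = 0.000282 and 4.58e-05), and K87K, at 0.32 ± 0.24, was not called.

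HSFB2A was the member with lower levels in every line. It had 17.9, 14.8 and 9.81 CPM in K87Q, 8.52, 11.3 and 17.3 CPM in K87R and 7.24, 11.01 and 7.77 CPM in K87K. The hy5 libraries, at 20.6 to 28.0 CPM, and the WT libraries, at 36.1 to 41.1 CPM, all lay above those of the lines. Against WT it fell by 1.45 in K87Q, 1.63 in K87R and 2.16 in K87K (log2, SE 0.22, 0.22 and 0.23, edgeR adjusted p = 3.64e-06, 8.61e-07 and 9.14e-08), and these calls held under every alternative tried. Against hy5 it fell by 0.82 in K87Q, 1.00 in K87R and 1.53 in K87K, but on total counts without TMM the K87Q and K87R differences shrank to -0.17 and -0.05 and were not called, while the median gene stood at 0.67 and 0.94, against 0.08 in both with TMM. The lower HSFB2A of these 2 lines against hy5 is thus relative to the bulk of genes.

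HSFA7A had 7.21, 7.23 and 7.21 CPM in K87Q, 13.0, 9.92 and 13.0 CPM in K87R and 6.62, 3.90 and 3.93 CPM in K87K. It had 6.15, 4.78 and 4.24 CPM in hy5 and 5.92, 6.61 and 6.84 CPM in WT. K87R was above all the other growth-light libraries. It rose in K87R by 1.23 ± 0.24 against hy5, 0.89 ± 0.23 against WT and 1.301 ± 0.24 against K87K (log2, edgeR adjusted p = 5.02e-05, 0.00194 and 2.92e-05). HSFA7B, its close relative, stayed at 0 to 3 counts in each library of the 3 lines, and at 0 to 6 in hy5 and WT, so HSFA2 and HSFA7A were raised in K87R with no detectable rise of HSFA7B at this depth.

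HSFA1D had 3.70, 6.65 and 6.62 CPM in K87Q, 9.41, 11.4 and 7.93 CPM in K87R and 6.49, 7.26 and 5.07 CPM in K87K. It had 3.97, 3.01 and 4.24 CPM in hy5 and 6.97, 6.53 and 5.55 CPM in WT. K87R held the highest levels, and 2 of the 3 K87Q libraries lay above those of hy5. Against hy5 it rose by 1.35 ± 0.27 in K87R and 0.74 ± 0.27 in K87K (log2, edgeR adjusted p = 5.73e-05 and 0.0378), and K87Q, at 0.59 ± 0.27, was not called (adjusted p = 0.0630 in edgeR). HSFA1A rose in K87R against hy5 by 2.08 ± 0.73 (edgeR adjusted p = 0.0155), from 17 to 52 counts a library in K87R, against 2 to 8 in hy5. HSFA3 was called in none of these comparisons: its means were 5.18 CPM in K87Q, 5.22 in K87R, 5.30 in K87K, 4.57 in hy5 and 3.99 in WT.

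Counted over members against hy5, 3 of 9 rose and 1 fell in K87Q, where 27.9% of all genes were called higher and 25.4% lower. In K87R, 6 rose and 1 fell (30.1% and 27.7% of all genes). In K87K, HSFA1D rose and HSFB2A and HSFB2B fell (14.2% and 13.9%). With so many genes called in the lines, neither a call nor libraries without overlap set a member apart by themselves. On total counts without TMM, the members called were 7 higher and 0 lower in K87Q (57.5% and 12.2% of all genes), 8 and 0 in K87R (67.1% and 9.87%), and 4 and 2 in K87K (29.9% and 5.29%). The call of HSFA1D in K87K against hy5 was lost on leaving out any 1 of 5 libraries, and that of HSFA1A in K87R without hy5 replicate 1 or K87R replicate 2 (adjusted p = 0.0874 and 0.0698 in edgeR).

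Against K87K, 5 of 9 members rose and HSFA4A fell in K87Q (25.3% of all genes were called higher and 25.9% lower), and 5 rose and 0 fell in K87R (25.3% and 25.4%). In K87Q the HSFA4A call, at -0.51, was lost on total counts (-0.17, adjusted p = 0.460 in edgeR) and without K87K replicate 1, K87Q replicate 1 or K87Q replicate 2 (0.0570 to 0.116). The HSFA7A call, at 0.58, was lost with DESeq2 (adjusted p = 0.0589), with no filter (0.0574) and without any 1 of 5 libraries, K87K replicate 1 being the exception. HSFB2A lost its K87Q call without K87K replicate 1, K87K replicate 3 or K87Q replicate 1, and HSFA1D its K87R call without K87K replicate 1 or 3 or K87R replicate 1 or 2. The HSFA1D call was also lost with DESeq2 (adjusted p = 0.0675), and in edgeR with DESeq2 size factors (0.0580) and with no filter (0.0539). Against WT, 3 rose and 1 fell in K87Q (26.6% and 25.7%), and 5 rose and 1 fell in K87R (25.1% and 24.6%). HSFA2, HSFB1 and HSFB2B rose in K87Q, and these with HSFA4A and HSFA7A in K87R, while HSFB2A fell in both. HSFB1 lost its K87Q call without WT replicate 2 or 3 or K87Q replicate 2 (edgeR adjusted p = 0.0592 to 0.0846). In K87R, HSFA4A lost its call without WT replicate 1 or 2 or K87R replicate 3 (0.0656 to 0.0841). HSFB2B lost its K87R call without WT replicate 3 or K87R replicate 2 (0.0964 and 0.0854). In K87K, HSFA2, HSFB2A and HSFB2B fell against WT and none rose (12.5% and 13.4%). Between K87Q and K87R, HSFA1D, HSFA4A and HSFA7A were lower in K87Q, at -0.77, -0.70 and -0.73 on the log2 scale, and none was higher (11.8% and 15.4%). HSFA4A had 7.88, 6.89 and 10.8 CPM in K87Q, against 13.7, 13.3 and 14.6 CPM in K87R, without overlap (edgeR adjusted p = 0.00495). HSFA1D and HSFA7A lost that call without K87Q replicate 1 (adjusted p = 0.162 and 0.0519 in edgeR), as they did without some K87R libraries. In the fit of all 21 libraries, whose spread includes that of high light, no member was called between K87Q and K87R, HSFA2 and HSFB2A alone were called in K87Q and in K87R against WT, and HSFA2 and HSFB2B alone in K87Q and in K87R against K87K.

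**Figure D5:**
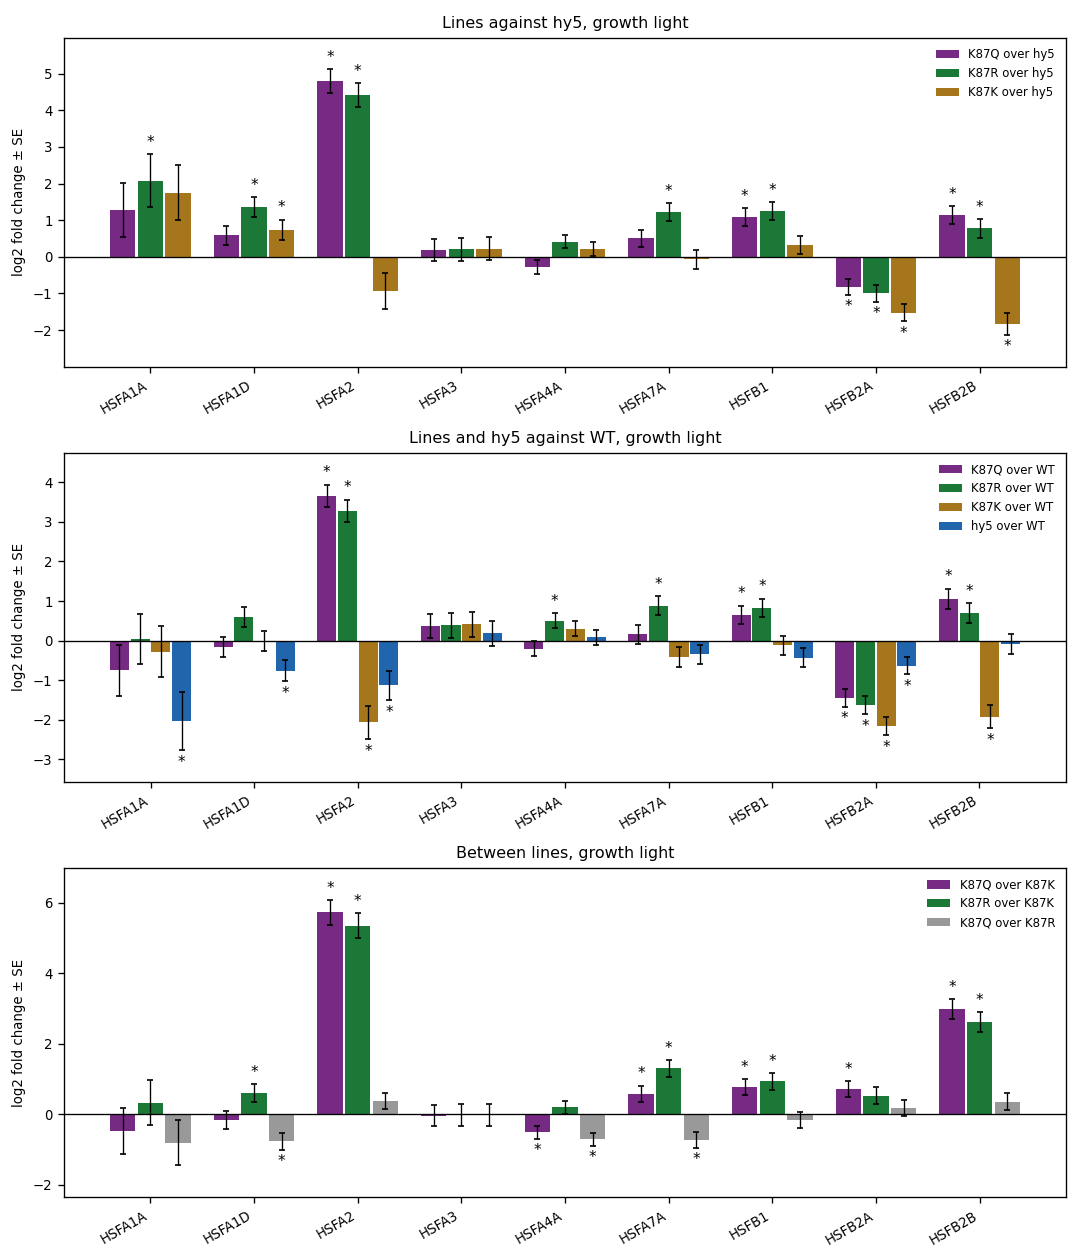
Log2 fold change ± SE of the 9 members tested in growth light, for the lines against hy5, the lines and hy5 against WT, and between lines; an asterisk marks an adjusted p under 0.05. HSFA2 has the tallest K87Q and K87R bars over hy5, WT and K87K (3.27 to 5.72), and HSFB2A is below 0 against hy5 and WT, at -0.17 and -0.05 in K87Q and K87R against hy5 on total counts.

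Cell type markers also differed between the lines. The 4 root markers summed to 957 to 1214 CPM in K87Q, 1318 to 1475 CPM in K87R and 2426 to 2981 CPM in K87K, against 2202 to 2218 CPM in hy5 and 2402 to 2896 CPM in WT. The 3 seed markers summed to 20.2 to 37.5 CPM in K87Q and 2.78 to 17.64 CPM in K87R, and to 0.573 CPM at most in K87K, hy5 and WT. The 4 shoot markers summed to 34985 to 52134 CPM in K87Q, 23464 to 25666 CPM in K87R and 51297 to 70698 CPM in K87K, against 104673 to 114894 CPM in hy5 and 88600 to 103069 CPM in WT. The part of these in the members' differences was not tested.

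Partners of the HSFs moved in the lines too. Of 10 tested, 8 rose and 1 fell in K87Q against hy5, and 9 rose and 1 fell in K87R, the one that fell being HSBP, a protein that binds HSFs, at -0.60 and -0.63 (log2). The smallest adjusted p-values in both lines were those of the chaperones HSP90.2, higher by 2.26 in K87Q and 2.25 in K87R, and HSP90.1, higher by 2.69 and 3.27. Next came FES1A in K87Q, higher by 2.28, and ROF1 in K87R, higher by 2.00. DREB2A rose by 3.66 in K87Q and 3.96 in K87R. In cytosol, HSP90 chaperones hold HSFA1 proteins inactive.

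HSF targets were split. Of 11 tested, 4 rose and 4 fell in K87Q against hy5, and 5 rose and 3 fell in K87R. HSP101, the disaggregase of the heat response, rose by 3.36 in K87Q and 3.06 in K87R, and ERDJ3A, a co-chaperone, by 2.00 and 2.67. GOLS1, an enzyme of galactinol synthesis, fell by 1.07 in K87Q and 1.59 in K87R. The others were chosen after their values were seen: CLPB4 and HSP70-4 rose in both lines and HSP70B in K87R, and HSA32 and HSP18.2 fell in both lines and HSP17.6C in K87Q.

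Of 7 other HSFs tested against hy5, HSFA1E, HSFA6B and HSFA8 rose in K87Q, and these and HSFA4C in K87R. HSFA8 rose by 0.84 in K87Q and 2.26 in K87R. HSFA6B had 55 counts over the K87Q libraries and 33 over those of K87R, against 0 over those of hy5, so no fold is given.

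Across the 21 libraries, the genes whose log2 CPM followed HSFA2 most closely, of 8789 named genes compared, were PFK7, DREB2A and HSP101 (Pearson's r 0.984 each), HSP81-2 (0.977), which is the gene called HSP90.2 above, and HSP81-3 (0.974). For HSFB2A they were cPT4 (0.976), AOX1A (0.959), TAF7 (0.945), ER-ANT1 (0.944) and BPS2 (0.944). For HSFA1D they were SMP2 (0.950), NAP1;3 (0.946), G6PD6 (0.940), ATO (0.939) and NAP1;1 (0.937). The libraries share groups and differ in depth, and these are descriptions.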

How the data were processed

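Per the labels, poly(A) RNA of whole seedlings was sequenced in 21 libraries. The TAIR10 build, featureCounts 1.5.0-p3, HISAT2 2.0.5, DESeq2 1.20.0, StringTie 1.3.3b and fastp are named, per the submitters' processing notes; their roles and the strand setting are not given in the sources used here. The values analysed are the deposited raw counts per gene, 32833 genes by 21 libraries. The deposited counts were scaled by TMM factors (0.6001 to 1.5643) and tested with edgeR 4.0.16 under R 4.3.3 (low genes removed by filterByExpr, minimum count 10; robust glmQLFit, glmQLFTest, Benjamini-Hochberg adjustment, threshold 0.05).

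Light contrasts and the interaction used the 12 WT and hy5 libraries, hy5 against WT in high light the 6 high-light libraries, and all other comparisons the 15 growth-light libraries, because high-light libraries varied more. Alternatives were DESeq2 1.42.0, its size factors, total-count scaling, no filter, 1 fit of all libraries, a replicate block, and leaving out libraries. The script was tested on simulated data. Depth ran from 7283290 to 22101539 counts, and PCR duplicates are not marked. Without TMM the median gene of K87R against hy5 stood at 0.94 on the log2 scale.

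All 10 members and their lists, HSF family, partners, targets and markers, were chosen with earlier results of these data known. All members are named, but not each in every contrast. Of a list, those called with the smallest adjusted p, at most 3, are named. For HSFA2, HSFA1D and HSFB2A the 5 genes of highest Pearson's r are named (log2 CPM, prior count 2). Replicate numbers were checked for pairing by correlating deviations from group means. For hy5 and WT in high light r was 0.381, 0.159 and 0.483, and in no other comparison were all 3 as high. Both replicate 3 libraries of high light stood apart, which can also raise these r, so the check cannot show that replicates were paired. Upstream bases were read from RefSeq TAIR10.1, where 32532 of 32833 genes have the deposited start and end.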

Additional observations from a re-analysis of the deposited data

How the results depend on the processing

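HSFA2 against hy5, WT and K87K in K87Q and K87R, HSFB2B against K87K in both, and HSFB2A of the 3 lines against WT stayed called, in the same direction, under every alternative run, and no called member reversed. The replicate block changed 0 of 130 member calls. With it, 8 members were called in each light contrast, 0 in the interaction and 0 in hy5 against WT in high light. For the light contrasts and the interaction, the block gives a replicate number the same effect in both lights. It cannot take up in full a deviation of the high-light replicate 3 libraries alone. Without both high-light replicate 3 libraries, 6 members were called in the interaction, all higher (7.94% of all genes), and 3 in hy5 against WT in high light, all higher (0.662%), where DESeq2 and the fit of all 21 libraries each called 1. In the fit of all 21 libraries, growth-light counts fell to 0 in hy5 against WT (4 in the growth-light fit), 1 in K87Q against hy5 (4), 4 in K87R against hy5 (7), 1 in K87K against hy5 (3), 2 in K87Q against K87K (6), 2 in K87R against K87K (5), 0 in K87Q against K87R (3), 2 in K87Q against WT (4), 2 in K87R against WT (6) and 1 in K87K against WT (3). On total counts, 7 were called in K87Q and 6 in K87K against hy5. Leaving out 1 library gave 0 to 2 in the interaction, 0 to 2 in hy5 against WT in growth light, 3 to 5 in K87Q against K87K, 1 to 3 in K87Q against K87R, 6 to 8 in the WT light contrast, 8 in that of hy5, 0 in hy5 against WT in high light, 4 to 6 in K87Q, 6 to 7 in K87R and 2 to 4 in K87K against hy5, 4 to 6 in K87R against K87K, and 3 to 4 in K87Q, 5 to 6 in K87R and 3 to 4 in K87K against WT. The lowest counts of K87Q against K87K and against K87R came without K87Q replicate 1. The share of all genes called was not computed for DESeq2, the block, the fit of all 21 libraries or the fits without 1 library. Those counts therefore cannot tell a change at the members from one over all genes. The causes were not tested. Depth limits HSFA1A, HSFA7B in growth light, HSFA2 in growth-light hy5 and in K87K, and HSFB2B in K87K, which rest on few counts.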
